A study of Mus musculus with 12 samples.

Results

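Enzymes that break down amino acids were examined in mouse livers carrying c-MET and activated β-catenin, on a chow diet or a low-protein diet. The 43 members were listed by name as enzymes of amino acid breakdown and were found among the 27179 genes of the count table through their Entrez identifiers. They covered 11 groups, for the breakdown of serine, threonine, histidine, tyrosine, tryptophan, glycine, proline and hydroxyproline, lysine, the branched-chain amino acids and cysteine, together with the transaminases that use glyoxylate. After a filter on low counts, 42 members were tested. Tdh, threonine dehydrogenase, was not tested, because it had 5 counts in all, every one of them in CD Vec replicate 3, and 0 in the other 11 libraries.

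Bulk RNA-seq of liver tissue gave 12 libraries, 3 in each of 4 groups of mice. Male mice were 8 weeks old when they were put on chow (CD) or on a diet low in protein (LPD). After 1 week on the diet they were injected with an empty vector (Vec) or with plasmids for human c-MET, a growth factor receptor, and ΔN90-β-catenin, a β-catenin that lacks its N terminus and escapes degradation. The groups are called CD Vec, CD oncogene, LPD Vec and LPD oncogene. A hydrodynamic tail vein injection carried the plasmids, driven by the EF1α promoter, into a fraction of hepatocytes, where the Sleeping Beauty transposase inserted them, and this pair of oncogenes gives hepatocellular carcinoma. The diet was kept until harvest, and all 4 groups were taken when the CD oncogene mice reached their end point. For the strain, the methods name C57/Bl3 mice, and another passage of the study names a mixed background of 129/Ola and C57BL/6. The sources describe mice fasted for some hours as the usual procedure. The labels give the cell type as hepatocyte, whereas whole liver tissue was extracted, so a level in these data is an average over every cell type of the sampled tissue. Library names differ between the replicates of a group, and where a shared animal or cage is not recorded, the p-values measure only the spread between these samples.

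The liver removes most amino acids that are not needed for protein synthesis. The first steps of each pathway usually take the amino group off, which is passed on toward the urea cycle, and the later steps carry the carbon skeleton to glucose precursors, ketone bodies or the citric acid cycle. Several first enzymes, among them Sds, Tat and Tdo2, are classic hepatic enzymes that respond to diet and hormones. Histidase, serine dehydratase and the glycine cleavage system are known for high expression around the portal vein, where β-catenin activity is low.

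Levels are given as CPM, which is the count of a gene per 1000000 counts of its library after scaling by the trimmed mean of M values (TMM), and differences as log2 fold changes with their standard error. Totals ranged from 19476209 to 31990267 counts per library. The biological coefficient of variation was 23.2%, and replicates differed by far more than the sampling noise. The header of the count table gives each column a dataset number, and these numbers form 3 runs that the labels do not explain. One run holds CD oncogene replicates 1 and 2 alone, another holds CD Vec 1 and 2 with LPD Vec 1, and the remaining 7 libraries, with every group among them, make up the run called run 2 here. Oncogene and Vec libraries share a run only in run 2, which has 1 CD Vec and 1 CD oncogene library. CD oncogene 3 stood nearer to the control livers than the other 2 libraries of its group. It was the highest of the 3 for 27 of the 31 members that fell on CD and the lowest for 0.

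All 4 enzymes of histidine breakdown were called lower with the oncogenes on CD, as 16.7% of all genes were. All 4 had an interaction with diet, called above 0 for 4.49% of all genes, so the promoters of these genes are shown. The windows hold the 250 bases before each RefSeq start on GRCm38, read 5′ to 3′ on the strand of the gene. Capitals mark every match on either strand to one of 6 sets of letters: TATAAA (the core promoter element), TTGCNNAA (C/EBP), GTTAAT (HNF1 core), TGACGTCA (cAMP response element), TGTTCT (glucocorticoid receptor core) and CTTTGA (TCF/LEF, the partners of β-catenin).
Hal: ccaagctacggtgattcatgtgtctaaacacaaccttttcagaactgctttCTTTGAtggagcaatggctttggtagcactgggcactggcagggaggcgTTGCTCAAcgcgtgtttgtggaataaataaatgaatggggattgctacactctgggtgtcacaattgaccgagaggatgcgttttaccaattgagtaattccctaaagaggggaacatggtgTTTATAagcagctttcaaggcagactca
Uroc1: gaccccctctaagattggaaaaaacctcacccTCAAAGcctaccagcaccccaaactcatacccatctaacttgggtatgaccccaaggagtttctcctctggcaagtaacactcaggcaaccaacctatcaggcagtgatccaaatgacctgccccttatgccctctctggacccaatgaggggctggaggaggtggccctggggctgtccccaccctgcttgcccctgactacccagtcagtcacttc
Amdhd1: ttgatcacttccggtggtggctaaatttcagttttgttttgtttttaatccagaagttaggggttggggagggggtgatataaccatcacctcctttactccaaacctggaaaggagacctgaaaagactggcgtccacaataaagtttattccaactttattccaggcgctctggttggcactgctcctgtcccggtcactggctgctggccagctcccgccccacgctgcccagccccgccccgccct
Ftcd: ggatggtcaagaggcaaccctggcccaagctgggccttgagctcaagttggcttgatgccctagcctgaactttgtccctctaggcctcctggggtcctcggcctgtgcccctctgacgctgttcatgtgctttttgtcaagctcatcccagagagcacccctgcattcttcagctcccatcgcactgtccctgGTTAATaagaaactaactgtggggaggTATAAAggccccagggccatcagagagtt

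The Hal window lies at chr10:93488518-93488767 on the + strand, and that of its neighbour Amdhd1 at chr10:93540034-93540283 on the - strand, with 4033 bases between the facing ends of the 2 genes. The Uroc1 window is chr6:90333039-90333288 and the Ftcd window chr10:76575398-76575647, both on the + strand. TATAAA was found 29 bases before the start in Ftcd, and on the opposite strand in Hal, at 28 bases. Of the 32851 RefSeq windows searched, here called all windows, 12.4% hold it on either strand. Windows on chromosome 18, which carries Aldh7a1 and Cdo1, were left out. The Hal window also had a C/EBP match, as 9.56% of all windows do, and the Ftcd window an HNF1 core, as 6.43% do. TCF/LEF letters were present in Hal and Uroc1 and in 13.8% of all windows. Over the 36 members with a window, 9 had a TCF/LEF match, 5 a TATAAA match, 5 a C/EBP match, 5 a glucocorticoid receptor core (16.1% of all windows), 4 an HNF1 core and 0 a cAMP response element (1.55% of all windows). A member was counted when any of its windows matched, whereas the shares are of single windows, so the 2 are in unlike units. No marked matches overlapped in these 4 windows, and the Amdhd1 window held none of the 6.

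On CD, most of these enzymes were lower in livers with the oncogenes. Of the 42 members tested, 31 were lower in CD oncogene than in CD Vec at an adjusted p under 0.05 and 0 were higher, in edgeR's quasi-likelihood test with Benjamini-Hochberg adjustment over all genes. Across all 13947 genes tested, 16.7% were lower and 18.7% were higher by the same rule, 35.4% in all. The median log2 fold change of the members was -1.17, against -0.01 over all genes. In 33 members all 3 CD oncogene libraries lay below all 3 CD Vec libraries, an arrangement found for 20.4% of all genes. Relative to the CD Vec mean, the median level of the members was 38.5%, 41.3% and 55.5% in the 3 CD oncogene libraries and between 95.8% and 104% in the CD Vec libraries. In bulk tissue, fewer cells that express an enzyme and less of its RNA per cell cannot be told apart.

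DESeq2 called 33 members lower on CD, the 31 with Agxt and Agxt2. Within run 2 alone, where CD oncogene 3 is set against CD Vec 3, 41 of the 42 members had a log2 ratio below 0, and the median was -0.91. That is 1 library against 1, with no replicate check of its own. A fit with a term for the runs called 10 members, namely Hal, Uroc1, Ftcd, Tdo2, Haao, Aass, Gcdh, Mccc2, Aldh6a1 and Pcca. That term rests the CD oncogene level on replicate 3 alone. Scaling by total counts in place of TMM moved the median of all genes on CD to 0.28 and that of the members to -0.88. With that scaling 78.8% of all calls on CD were higher, against 52.8%, and Gcat, Hgd, Prodh and Dbt lost their calls.

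**Figure D1:**
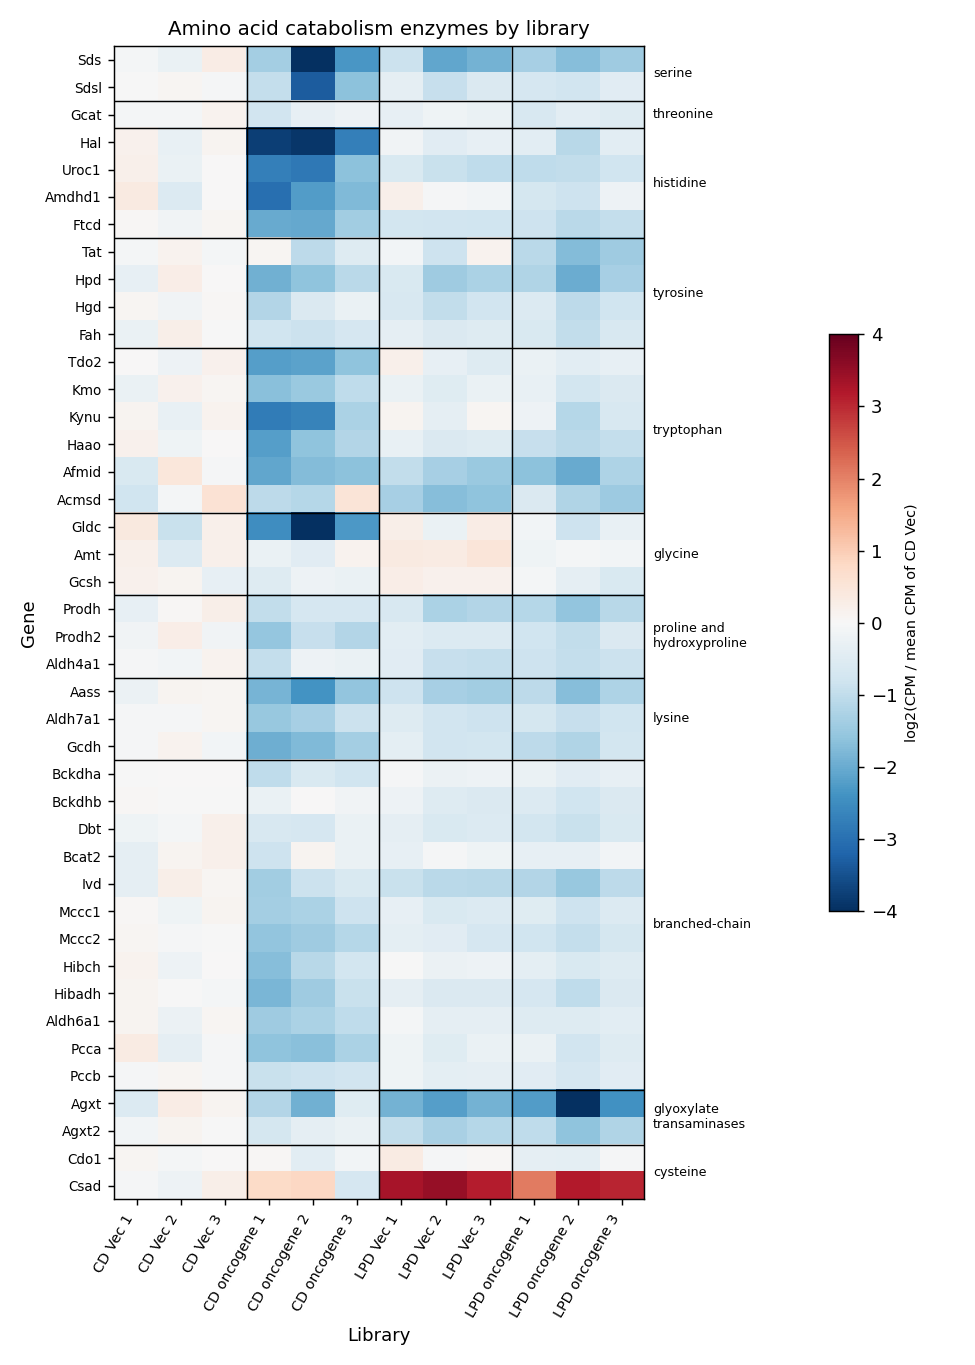
Level of each of the 42 tested members (rows, by amino acid) in each of the 12 libraries (columns), as log2 of CPM over the CD Vec mean; blue is lower and red is higher, and the scale ends at -4 and 4. The 3 CD oncogene columns are blue for most rows, with medians of 38.5%, 41.3% and 55.5% of the CD Vec mean, and Csad is red in all LPD columns.

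On LPD the same comparison called 0 of the 42 members, whereas 1.32% of all genes were called, 1.15% higher and 0.165% lower. Without adjustment, 6 of the 42 members had a p under 0.05, as did 1545 of the 13947 genes, and the lowest adjusted p was 0.0843, for Tat. DESeq2 called Tat alone, and a fit to the LPD libraries alone called Haao, Amt and Gcsh. Log2 fold changes ranged from -1.18 for Tat to 0.50 for Acmsd, with 40 of the 42 below 0 and a median of -0.24, against 0.01 over all genes. In 16 members all LPD oncogene libraries lay below all LPD Vec libraries, while 11.6% of all genes did so.

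The difference between the diets was itself tested. At the shared harvest the study reports a lower tumor burden on LPD than on CD, and the part of tumor content in this difference was not tested. The interaction, defined as the oncogene effect (log2) under LPD less the effect under CD, was called above 0 for 20 members and below 0 for 0, where 4.49% of all genes were called above 0 and 4.42% below, 8.91% in all. Its median was 0.97 over the members and 0.02 over all genes. The called members were the 4 histidine enzymes, Tdo2, Kmo, Haao and Afmid for tryptophan, Gldc for glycine, Prodh2 for hydroxyproline, the 3 lysine enzymes, and Bckdha, Mccc1, Mccc2, Hibadh, Aldh6a1, Pcca and Pccb for the branched-chain amino acids. Below, a call is said to be lost without a library where the fit that left out that library alone did not pass, and every such library is named. Only Hal, Uroc1, Ftcd, Tdo2, Aass, Gcdh and Mccc2 kept this call in all 12 fits that each left out 1 library, and the count fell to 7 without LPD Vec 2, 9 without LPD Vec 3, 10 without LPD oncogene 3, 11 without LPD oncogene 1 and 13 without CD Vec 3. With a term for the runs, Hal alone was called, and in run 2 alone the median of the interaction was 0.77, with 37 of the 42 members above 0. DESeq2 called 22 members, all 20 of these and Sdsl and Kynu. Total-count scaling called 14, without Haao, Gldc, Prodh2, Bckdha, Hibadh and Pccb, and the fit without a filter on low counts called 17, without Gldc, Bckdha and Pccb. Members outside the 20 that passed with 1 library left out were Sds and Sdsl without CD oncogene 1, Sdsl without CD oncogene 2, and Kynu and Hibch without CD oncogene 3.

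**Figure D2:**
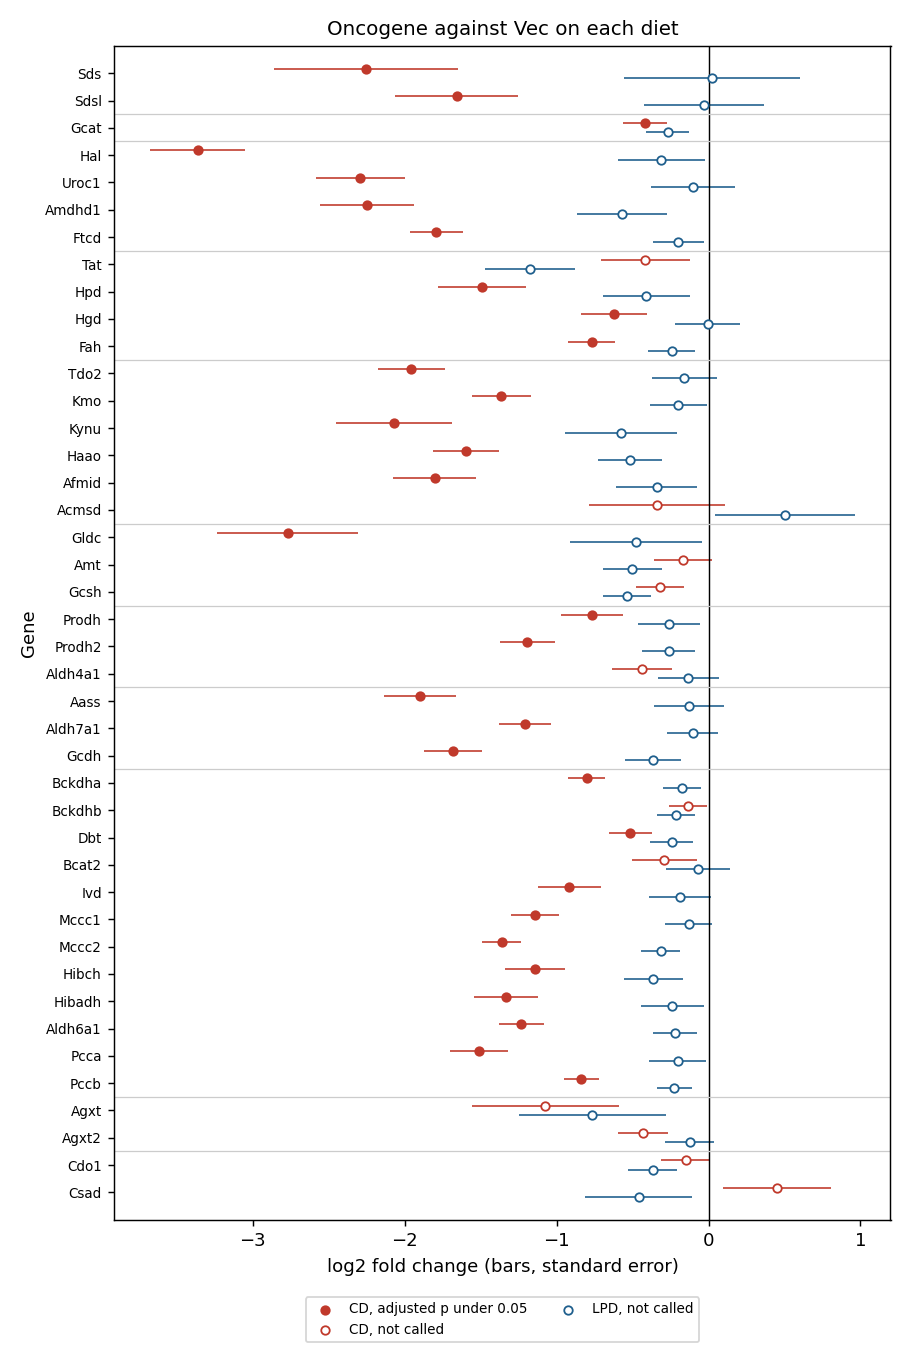
Log2 fold change of oncogene against Vec for each member (rows), on CD in red and on LPD in blue, with bars for the standard error and filled points for an adjusted p under 0.05. There are 31 filled red points, all to the left of 0, and 0 filled blue points.

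In Vec livers, LPD against CD gave 1 member higher and 1 lower, where 0.186% of all genes were higher and 0.122% lower. These were Csad and Agxt2. Without adjustment, 24 of the 42 members had a p under 0.05 in edgeR's test, as did 1377 of the 13947 genes. Of the 42 members, 36 had a log2 fold change below 0 and the median was -0.49, against -0.03 over all genes. All LPD Vec libraries lay below all CD Vec libraries for 27 members, an arrangement that 9.02% of all genes showed, and above them for 3, as for 8.13% of all genes. Relative to the CD Vec mean, the median level over the members was 66.8% to 78.9% in the LPD Vec libraries and 51.6% to 65.3% in the LPD oncogene libraries. DESeq2 called 14 members in this comparison, 13 of them lower, Afmid passed without CD Vec 1 and Aldh4a1 without CD oncogene 1, and without CD Vec 2 edgeR called 0.

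In oncogene livers, LPD against CD gave 16 members higher and 4 lower, where 8.66% of all genes were higher and 11.3% lower. The median was 0.44, against -0.01 over all genes. The 16 higher members were the 4 histidine enzymes, Tdo2, Kmo, Kynu, Gldc, Gcdh, Bckdha, Mccc1, Mccc2, Hibch, Aldh6a1, Pcca and Csad, and the 4 lower members were Tat, Bckdhb, Agxt and Agxt2. All LPD oncogene libraries lay above all CD oncogene libraries for 19 members and below them for 5, while 19.2% and 20.1% of all genes did so. Leaving out LPD oncogene 3 reduced the calls to 13, the fit to the oncogene libraries alone also gave 13, without Tat, Kynu, Gcdh, Bckdha, Mccc1, Hibch and Agxt, total-count scaling gave 18, without Mccc1 and Hibch, the fit without a filter on low counts gave 19, without Agxt, and the term for the runs reduced them to 4, which were Hal, Tdo2, Agxt2 and Csad. DESeq2 called 24, the 20 with Sdsl, Haao, Hibadh and Pccb. Members outside the 20 that passed with 1 library left out were Sdsl and Aldh4a1 without CD oncogene 1, Haao, Aass, Aldh7a1 and Hibadh without CD oncogene 3, and Pccb without CD Vec 2. The comparisons of oncogene with Vec and of LPD with CD share libraries, so their values are given side by side and no overlap between them is counted.

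**Figure D3:**
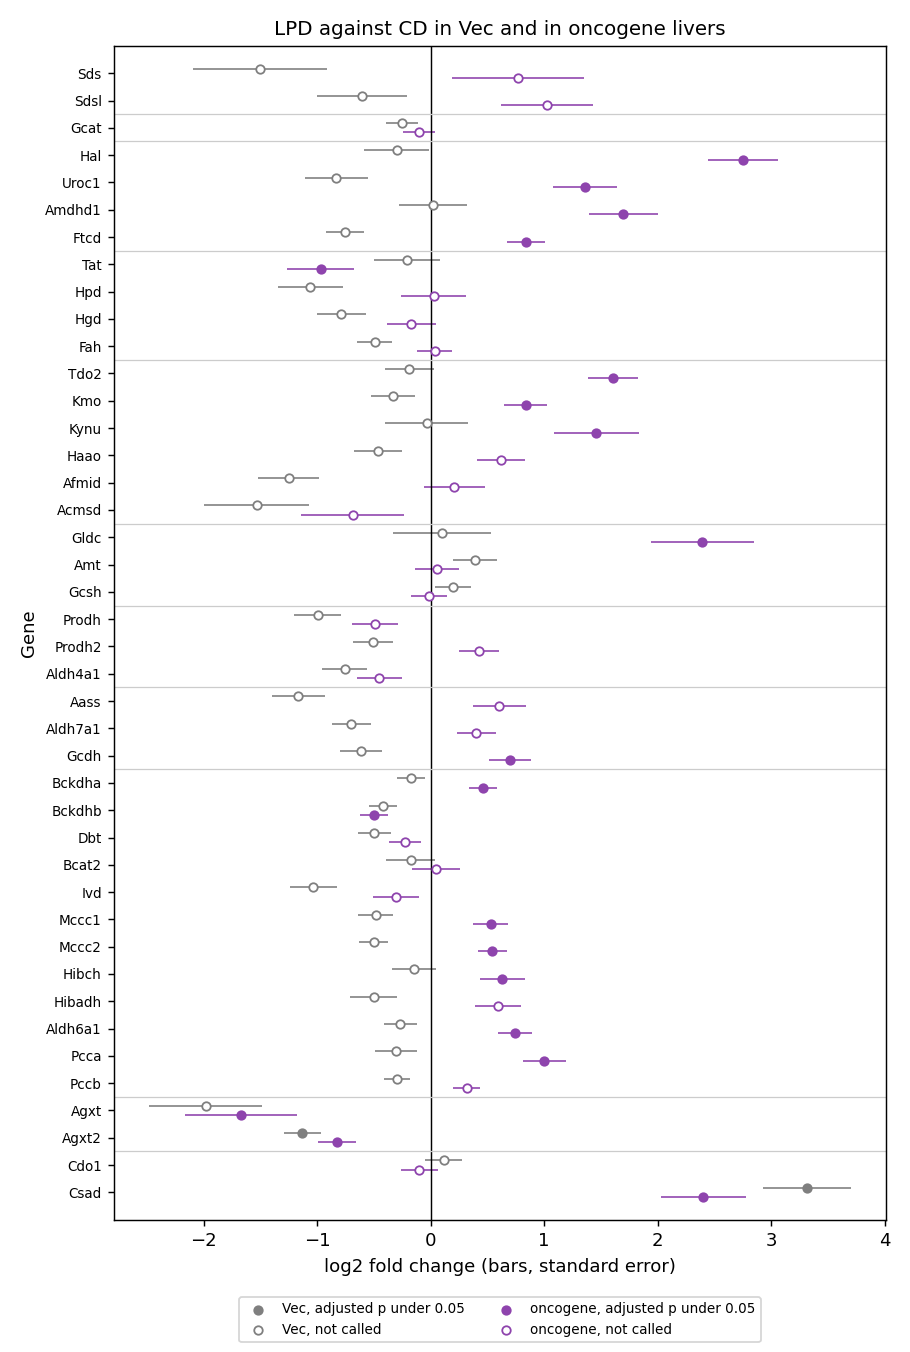
Log2 fold change of LPD against CD for each member (rows), in Vec livers in grey and in oncogene livers in purple, with bars for the standard error and filled points for an adjusted p under 0.05. In Vec livers 36 points lie left of 0 and 2 are filled, and in oncogene livers 16 filled points lie right of 0 and 4 left of it.

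All 4 enzymes of histidine breakdown had less RNA with the oncogenes on CD. Each was called lower in CD oncogene than in CD Vec, as 16.7% of all genes were, with a median log2 fold change of -2.27. All 4 had an interaction with diet, called above 0 for 4.49% of all genes. Hal is histidase, which takes the ammonia off histidine and starts the pathway. The gene (GRCm38, Entrez 15109, chr10:93488768-93519304 on the + strand) lies beside Amdhd1. Hal was at 267, 192 and 257 CPM in CD Vec, 17.6, 16.0 and 36.0 CPM in CD oncogene, 217, 175 and 189 CPM in LPD Vec, and 179, 111 and 179 CPM in LPD oncogene. The CD oncogene libraries were the lowest 3 of the 12 and did not overlap with any other group, while the LPD oncogene libraries reached into the range of LPD Vec. Its log2 fold change on CD was -3.36 ± 0.32 (adjusted p = 3.32e-05), a 10.3-fold lower level, and -0.31 ± 0.29 on LPD (adjusted p = 0.811), and the interaction was 3.05 ± 0.42 (adjusted p = 0.00321). In run 2 the log2 ratios were -2.83 on CD and -0.22 on LPD.

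Uroc1, urocanate hydratase, acts next. Its levels were 629, 449.7 and 549.9 CPM in CD Vec, 82.3, 74.6 and 176 CPM in CD oncogene, 357, 293 and 266 CPM in LPD Vec, and 269, 272 and 313 CPM in LPD oncogene. CD Vec was highest in every library, CD oncogene lowest, and the LPD groups lay between them and overlapped with each other. The log2 fold change was -2.29 ± 0.29 on CD (adjusted p = 0.000153) and -0.10 ± 0.28 on LPD (adjusted p = 0.951). Amdhd1, the imidazolonepropionase of the following step, was at 256, 137 and 202 CPM in CD Vec, 24.7, 42.6 and 58.0 CPM in CD oncogene, 229.9, 191 and 183 CPM in LPD Vec, and 123, 112 and 172 CPM in LPD oncogene. CD oncogene was again below every other library, and LPD Vec overlapped with CD Vec. Amdhd1 fell by 2.25 ± 0.31 on the log2 scale on CD (adjusted p = 0.000285), and its value on LPD was -0.57 ± 0.30 (adjusted p = 0.536). Its interaction of 1.68 ± 0.42 was lost without CD Vec 1 and 3, CD oncogene 2, LPD Vec 1, 2 and 3 and LPD oncogene 1 and 3 (adjusted p = 0.0523 to 0.0893).

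Ftcd passes the one-carbon unit of histidine to folate and releases the nitrogen of that unit as ammonia. It was measured at 588, 521 and 607 CPM in CD Vec, 141, 138 and 216 CPM in CD oncogene, 346, 339 and 333 CPM in LPD Vec, and 320.1, 270.4 and 296 CPM in LPD oncogene. The replicates of this gene lay close together, and the groups were ordered CD Vec, LPD Vec, LPD oncogene, CD oncogene, with no overlap between neighbours. Its log2 fold change was -1.79 ± 0.17 on CD (adjusted p = 3.64e-05) and -0.20 ± 0.17 on LPD, where it did not pass the test (adjusted p = 0.781). LPD against CD in Vec gave -0.75 ± 0.17 (adjusted p = 0.0837), which was called by DESeq2 and without CD oncogene 3 (-0.75, adjusted p = 0.0293). In oncogene livers all 4 histidine enzymes were higher on LPD than on CD, by 2.75 ± 0.31 for Hal, 1.70 ± 0.31 for Amdhd1, 1.36 ± 0.28 for Uroc1 and 0.84 ± 0.17 for Ftcd on the log2 scale, with adjusted p of 0.000409, 0.00346, 0.00662 and 0.00594.

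**Figure D4:**
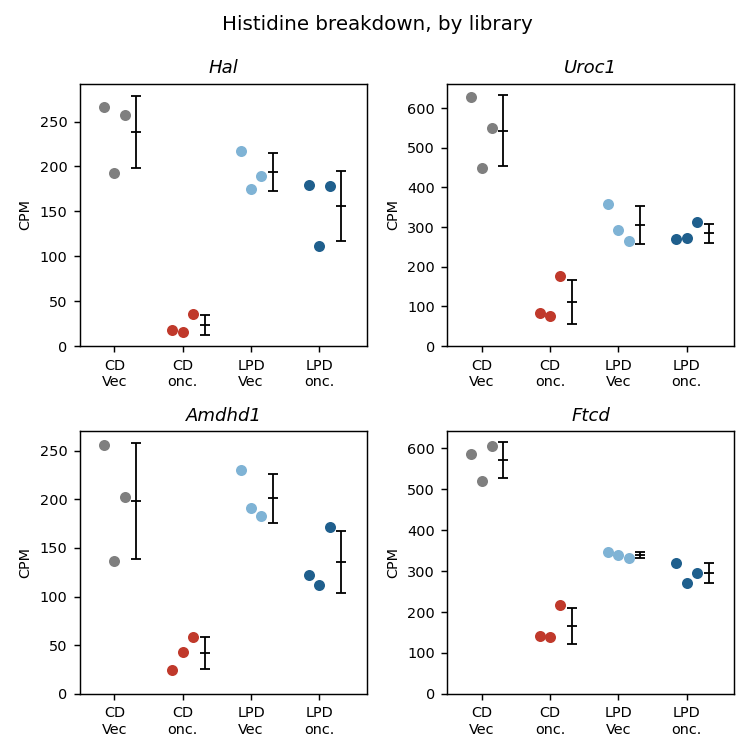
Levels in CPM of the 4 histidine enzymes in each library (points), by group, with the mean and SD of the 3 libraries in black. For each enzyme the 3 CD oncogene points are the lowest of the 12, with Hal at 17.6, 16.0 and 36.0.

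Serine and threonine are deaminated or cleaved by the next members. Sds, serine dehydratase, turns serine to pyruvate and ammonia, and Sdsl is its close relative, whose gene starts on the opposite strand with 3715 bases between the 2 genes on chromosome 5. Sds was at 233, 204 and 303 CPM in CD Vec, 95.8, 10.1 and 49.0 CPM in CD oncogene, 137, 58.4 and 66.2 CPM in LPD Vec, and 97.6, 75.7 and 91.6 CPM in LPD oncogene. CD Vec was the highest group without overlap, and the other 3 groups overlapped. CD oncogene 2 was far below the rest of its group. Sds fell by 2.25 ± 0.61 on the log2 scale on CD (adjusted p = 0.0141), and on LPD the value was 0.02 ± 0.58 (adjusted p = 0.996). LPD against CD gave -1.50 ± 0.59 in Vec (adjusted p = 0.405), and the interaction was 2.27 ± 0.83 (adjusted p = 0.111), and neither was called. The interaction passed without CD oncogene 1 (3.08, adjusted p = 0.0469). In run 2, where each CD group has 1 library, the log2 values were -2.29 for diet in Vec and 3.13 for the interaction. The fit to these libraries called both (adjusted p = 0.0022 and 0.00248) and LPD against CD in oncogene livers (adjusted p = 0.0207), with each lone CD library assumed to vary like the LPD libraries. Exons of Sds overlap those of Plbd2 and Gm15690 on the other strand, and whether the counting used the strand is not stated.

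Sdsl was low, at 15.6, 16.8 and 15.2 CPM in CD Vec, 8.26, 1.59 and 5.09 CPM in CD oncogene, 12.3, 8.32 and 10.7 CPM in LPD Vec, and 9.92, 9.30 and 11.5 CPM in LPD oncogene. It showed the same separation of CD oncogene from CD Vec, and its lowest library was also CD oncogene 2. Its log2 fold change was -1.66 ± 0.41 on CD (adjusted p = 0.00807) and -0.03 ± 0.40 on LPD (adjusted p = 0.99). For threonine, Gcat, which cleaves aminoketobutyrate to glycine and acetyl-CoA, had means of 89.1 ± 8.26, 66.7 ± 13.1, 74.9 ± 4.41 and 62.2 ± 4.44 CPM (SD, n = 3) in CD Vec, CD oncogene, LPD Vec and LPD oncogene. Its log2 fold change of -0.42 ± 0.14 on CD (adjusted p = 0.0385) was lost without CD Vec 1 and 3, CD oncogene 1 and 2, LPD Vec 1, 2 and 3 and LPD oncogene 3 (adjusted p = 0.0517 to 0.129). Total-count scaling gave -0.13 (adjusted p = 0.536), and the call was also lost without a filter on low counts (adjusted p = 0.0542) and in the fit to the CD libraries alone (adjusted p = 0.126).

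Of the glycine cleavage system, only Gldc was called on CD. This complex splits glycine to carbon dioxide, ammonia and a one-carbon unit, and Gldc is its decarboxylase. Its gene (GRCm38, Entrez 104174, chr19:30098447-30175429 on the - strand) was at 197, 81.9 and 174 CPM in CD Vec, 27.0, 8.28 and 30.9 CPM in CD oncogene, 177, 124 and 184 CPM in LPD Vec, and 141, 84.5 and 123 CPM in LPD oncogene. Every CD oncogene library was below the lowest library of the other groups, and the other 3 groups overlapped. Gldc fell by 2.77 ± 0.46 on the log2 scale on CD (adjusted p = 0.000979), a 6.83-fold lower level, and was -0.48 ± 0.43 on LPD (adjusted p = 0.806). LPD against CD in oncogene livers gave 2.40 ± 0.46 (adjusted p = 0.00497). The interaction of 2.29 ± 0.62 (adjusted p = 0.0435) was lost without CD Vec 1 and 3, CD oncogene 1, LPD Vec 1, 2 and 3 and LPD oncogene 1 and 3 (adjusted p = 0.0663 to 0.111).

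The partners of Gldc were not called in any of the 5 comparisons over all libraries. Amt, the aminomethyltransferase, had means of 41.9 ± 11.3 CPM in CD Vec and 37.3 ± 7.82 CPM in CD oncogene (SD, n = 3), with libraries that overlapped and a log2 fold change of -0.17 ± 0.19 (adjusted p = 0.532). Gcsh, the lipoyl carrier protein, was at 111, 106 and 79.2 CPM in CD Vec and 69.1, 85.0 and 82.7 CPM in CD oncogene, again with overlap, and its value was -0.32 ± 0.16 (adjusted p = 0.135), which passed without CD Vec 3 (-0.45, adjusted p = 0.0452). On LPD the values were -0.50 ± 0.19 for Amt and -0.54 ± 0.16 for Gcsh, and both were called when only the LPD libraries were fitted. Whether Gldc differed from its partners was not tested.

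Tyrosine breakdown starts with a transamination, which Tat catalyses, and Hpd, Hgd and Fah carry the product to fumarate and acetoacetate. Per kilobase of exon, Hpd, hydroxyphenylpyruvate dioxygenase, had the highest level of all members in CD Vec, 1428 CPM per kb, followed by Fah at 428 CPM per kb. Hpd was at 1610, 2389 and 2015 CPM in CD Vec, 528, 659 and 949 CPM in CD oncogene, 1301, 744 and 843 CPM in LPD Vec, and 873, 506 and 796 CPM in LPD oncogene. All CD Vec libraries were above all others. Hpd fell by 1.49 ± 0.29 on the log2 scale on CD (adjusted p = 0.00202), was -0.41 ± 0.28 on LPD (adjusted p = 0.698) and had -1.06 ± 0.29 for LPD against CD in Vec (adjusted p = 0.151, called by DESeq2). Its interaction was not called (adjusted p = 0.112).

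Hgd and Fah, the enzymes that open the ring of homogentisate and split fumarylacetoacetate, fell on CD by 0.62 ± 0.21 (adjusted p = 0.0406) and 0.77 ± 0.16 (adjusted p = 0.00261) on the log2 scale. Hgd lost its call without CD Vec 1 and 3, CD oncogene 1 and 2, LPD Vec 1, 2 and 3 and LPD oncogene 3 (adjusted p = 0.052 to 0.106). It was -0.34 with total-count scaling (adjusted p = 0.235), and the call was also lost in the fit to the CD libraries alone (adjusted p = 0.106). Tat was the 1 enzyme of the 4 not called on CD, and whether it differed from the others was not tested. It was at 879, 1014 and 875 CPM in CD Vec, 977, 444 and 651 CPM in CD oncogene, 860.2, 524 and 1013 CPM in LPD Vec, and 436, 278 and 347 CPM in LPD oncogene, with CD oncogene overlapping CD Vec and all LPD oncogene libraries below all others. Its log2 fold change was -0.42 ± 0.29 on CD (adjusted p = 0.294), -1.18 ± 0.30 on LPD (adjusted p = 0.0843) and -0.97 ± 0.30 for LPD against CD in oncogene livers (adjusted p = 0.0377). The last call was lost without CD oncogene 1 and 3, LPD Vec 1 and LPD oncogene 2 and 3 (adjusted p = 0.0519 to 0.147). The value on LPD was called by DESeq2 and without CD oncogene 1 (-1.18, adjusted p = 0.0439).

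Tryptophan is oxidised along the kynurenine pathway. In 5 of its 6 listed enzymes the level was called lower on CD, as for 16.7% of all genes. The median log2 fold change was -1.70 over the 6, against -0.01 over all genes. Tdo2, the dioxygenase that opens the indole ring (GRCm38, Entrez 56720, chr3:81957090-81976202 on the - strand), was at 1327, 1131 and 1488 CPM in CD Vec, 287, 299 and 432 CPM in CD oncogene, 1516, 1037 and 912 CPM in LPD Vec, and 1089, 974 and 1037 CPM in LPD oncogene. CD oncogene lay far below the 3 other groups, and LPD Vec spanned the range of both CD Vec and LPD oncogene. Tdo2 fell by 1.96 ± 0.22 on the log2 scale on CD (adjusted p = 7.93e-05) and was -0.16 ± 0.21 on LPD (adjusted p = 0.889), with an interaction of 1.79 ± 0.30 (adjusted p = 0.00726). LPD against CD in oncogene livers gave 1.61 ± 0.22 (adjusted p = 0.000886), which was also called with a term for the runs.

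Kmo and Kynu act on kynurenine, by hydroxylation and by cleavage. Kmo was at 338, 459 and 432 CPM in CD Vec, 128, 146 and 203 CPM in CD oncogene, 344, 292 and 341 CPM in LPD Vec, and 331, 247 and 274 CPM in LPD oncogene, with no overlap of CD oncogene with any other group. It fell by 1.36 ± 0.19 on CD (adjusted p = 0.000312) and was -0.20 ± 0.19 on LPD (adjusted p = 0.822). Kynu was at 215, 163 and 222 CPM in CD Vec, 28.5, 31.1 and 83.0 CPM in CD oncogene, 216, 156 and 213 CPM in LPD Vec, and 173, 91.4 and 129 CPM in LPD oncogene. Here CD oncogene 3 was more than 2-fold above the other 2 CD oncogene libraries and came close to the lowest LPD oncogene library. Its log2 fold change was -2.07 ± 0.38 on CD (adjusted p = 0.00163). The log2 ratio of CD oncogene 3 to CD Vec 3, the pair of run 2, was -1.42. LPD against CD in oncogene livers gave 1.46 ± 0.38 (adjusted p = 0.0185), which was lost without CD oncogene 1 and 2 and LPD oncogene 1 (adjusted p = 0.0621 to 0.0679).

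Haao, which makes the precursor of quinolinate, and Afmid, which frees kynurenine from its formyl group, fell by 1.60 ± 0.22 (adjusted p = 0.000247) and 1.80 ± 0.27 (adjusted p = 0.00049) on CD. Afmid exons overlap Tk1, a proliferation gene on the other strand, and Gm20708 on the same strand, so its counts are uncertain. The interactions of Haao, Afmid and Kmo were 1.08 ± 0.30, 1.46 ± 0.38 and 1.17 ± 0.27. That of Haao was lost without CD Vec 1 and 3, CD oncogene 2, LPD Vec 1, 2 and 3 and LPD oncogene 1, 2 and 3 (adjusted p = 0.0658 to 0.122), that of Afmid without CD Vec 2 and 3, CD oncogene 1 and 2, LPD Vec 2 and 3 and LPD oncogene 1 and 3 (adjusted p = 0.0546 to 0.0931), and that of Kmo without LPD Vec 2 and 3 and LPD oncogene 1 and 3 (adjusted p = 0.0534 to 0.0742). Acmsd, the decarboxylase that diverts the pathway from NAD synthesis, had the lowest level of the 42 per kilobase in CD Vec and was not called on CD (-0.34 ± 0.45, adjusted p = 0.585), though it was called without CD oncogene 3 (-1.09, adjusted p = 0.0406). It was at 8.61, 14.1 and 22.3 CPM in CD Vec, 7.28, 6.85 and 21.5 CPM in CD oncogene, 5.998, 4.60 and 4.98 CPM in LPD Vec, and 10.2, 6.46 and 5.51 CPM in LPD oncogene, with the widest spread in the CD groups, where both replicates 3 were the highest of their group.

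RNA of each of the 3 listed enzymes of lysine breakdown was lower on CD, with a median log2 fold change of -1.68. Aass, the first enzyme, which joins lysine to ketoglutarate and splits the product, was at 269.7, 347 and 338 CPM in CD Vec, 88.6, 60.8 and 106 CPM in CD oncogene, 177, 126 and 122 CPM in LPD Vec, and 154, 98.6 and 136 CPM in LPD oncogene. CD Vec was the highest group without overlap, and CD oncogene lay below LPD Vec in every library. It fell by 1.90 ± 0.24 on the log2 scale on CD (adjusted p = 0.000137) and was -0.13 ± 0.23 on LPD (adjusted p = 0.923), with an interaction of 1.77 ± 0.33 (adjusted p = 0.0102). LPD against CD in Vec gave -1.17 ± 0.23 (adjusted p = 0.0608), which was called by DESeq2, with no filter on low counts, and without CD Vec 1 (-1.27, adjusted p = 0.0499) and without CD oncogene 2 (-1.17, adjusted p = 0.0418).

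Gcdh, glutaryl-CoA dehydrogenase, which lysine and tryptophan breakdown share, was at 697, 808 and 676 CPM in CD Vec, 187, 212 and 281 CPM in CD oncogene, 554, 427 and 439.7 CPM in LPD Vec, and 354, 313 and 436 CPM in LPD oncogene. The groups were ordered CD Vec, LPD Vec, LPD oncogene and CD oncogene by their means, and LPD oncogene overlapped only LPD Vec. Gcdh fell by 1.68 ± 0.19 on CD (adjusted p = 7.9e-05), with an interaction of 1.31 ± 0.26 (adjusted p = 0.0137). In oncogene livers it was 0.70 ± 0.19 higher on LPD than on CD (adjusted p = 0.0207), a call that was lost without CD oncogene 1 and 2 and LPD oncogene 3 (adjusted p = 0.0643 to 0.0911). Aldh7a1, the semialdehyde dehydrogenase between them, had means of 614 ± 32.6, 266 ± 64.1, 378 ± 46.7 and 352 ± 27.0 CPM (SD, n = 3) in CD Vec, CD oncogene, LPD Vec and LPD oncogene. It fell by 1.21 ± 0.17 on CD (adjusted p = 0.000308), and its interaction of 1.10 ± 0.24 was lost without LPD Vec 2 and 3 (adjusted p = 0.055 to 0.0619).

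Proline and hydroxyproline are oxidised by Prodh and Prodh2, and Aldh4a1 acts on the products of both. Prodh2 was at 285, 379 and 287 CPM in CD Vec, 109, 166 and 142 CPM in CD oncogene, 238, 216 and 216 CPM in LPD Vec, and 184, 161 and 214 CPM in LPD oncogene, without overlap between CD oncogene and either Vec group. It fell by 1.19 ± 0.18 on CD (adjusted p = 0.000425) and was -0.26 ± 0.18 on LPD (adjusted p = 0.678). Its interaction of 0.93 ± 0.25 (adjusted p = 0.0404) was lost without CD Vec 2, CD oncogene 1 and 3, LPD Vec 1, 2 and 3 and LPD oncogene 1 and 3 (adjusted p = 0.053 to 0.102). Prodh, for proline, fell by 0.77 ± 0.20 on CD (adjusted p = 0.0123), a call that total-count scaling, with -0.47, ended (adjusted p = 0.0628). Its levels of 165, 107 and 112 CPM in LPD Vec were all below the 204, 264 and 298 CPM of CD Vec (-0.997 ± 0.20, adjusted p = 0.0685), a difference that DESeq2 called (adjusted p = 0.00101) and that passed without CD Vec 1 (-1.13, adjusted p = 0.0403) and without LPD Vec 1 (-1.22, adjusted p = 0.0409). Aldh4a1 was not called on CD (-0.44 ± 0.20, adjusted p = 0.109), although all CD oncogene libraries were below all CD Vec libraries. Its exons overlap those of Gm21969 on the same strand, so its counts are uncertain.

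Branched-chain amino acids lose their amino group mainly outside the liver, and the liver oxidises the ketoacids that result. Of the 12 members of this group, 10 were called lower on CD, where 16.7% of all genes were. The median log2 fold change was -1.03, against -0.01 over all genes. The ketoacid dehydrogenase is built from Bckdha and Bckdhb, which form its decarboxylase, and Dbt, its transacylase core. Bckdha was at 225, 231 and 229 CPM in CD Vec, 114, 149 and 130.1 CPM in CD oncogene, 219, 193 and 196 CPM in LPD Vec, and 189, 166 and 183 CPM in LPD oncogene, with CD oncogene below every other library. It fell by 0.80 ± 0.12 on the log2 scale on CD (adjusted p = 0.000487) and was -0.17 ± 0.12 on LPD (adjusted p = 0.7). Bckdhb was at 75.5, 72.2 and 72.7 CPM in CD Vec, 60.5, 73.6 and 66.7 CPM in CD oncogene, 64.2, 51.0 and 49.5 CPM in LPD Vec, and 50.3, 42.7 and 49.0 CPM in LPD oncogene. Its CD libraries overlapped, and the value on CD was -0.14 ± 0.12 (adjusted p = 0.425). In oncogene livers the subunits had opposite signs for LPD against CD, 0.46 ± 0.12 for Bckdha (adjusted p = 0.0213) and -0.50 ± 0.12 for Bckdhb (adjusted p = 0.0157), under every scaling tried. The call was lost for Bckdha without CD oncogene 1 and LPD oncogene 1 and 3 (adjusted p = 0.0558 to 0.0723) and for Bckdhb without CD oncogene 2 and LPD oncogene 2 (adjusted p = 0.0569 to 0.0704). Dbt fell by 0.51 ± 0.14 on CD (adjusted p = 0.0152), which was lost without CD Vec 3 and CD oncogene 2 (adjusted p = 0.0568 to 0.0638). Total-count scaling gave -0.23 for Dbt (adjusted p = 0.204), and the fit to the CD libraries alone did not call it either (adjusted p = 0.0661).

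The leucine branch uses Ivd and the carboxylase made of Mccc1 and Mccc2. Mccc2 was at 80.6, 73.5 and 75.8 CPM in CD Vec, 25.9, 28.7 and 34.9 CPM in CD oncogene, 58.0, 56.0 and 48.3 CPM in LPD Vec, and 43.8, 39.7 and 47.1 CPM in LPD oncogene, and the 4 groups did not overlap, in the descending order CD Vec, LPD Vec, LPD oncogene and CD oncogene. It fell by 1.36 ± 0.13 on CD (adjusted p = 3.36e-05), was -0.31 ± 0.13 on LPD (adjusted p = 0.364) and had an interaction of 1.05 ± 0.18 (adjusted p = 0.00789). Its partner Mccc1 had a log2 fold change of -1.14 ± 0.16 on CD (adjusted p = 0.000251) and an interaction of 1.01 ± 0.22, which was lost without LPD Vec 2 and 3 and LPD oncogene 3 (adjusted p = 0.0518 to 0.0652). In oncogene livers LPD against CD gave 0.54 ± 0.13 for Mccc2, lost without LPD oncogene 3, with adjusted p = 0.053, and 0.53 ± 0.16 for Mccc1, lost without CD oncogene 1 and 2 and LPD oncogene 1 and 3, with adjusted p = 0.0986 to 0.108. Ivd, isovaleryl-CoA dehydrogenase, fell by 0.92 ± 0.21 on CD (adjusted p = 0.00482). In LPD Vec it was at 106, 93.1 and 91.0 CPM, below every CD Vec library at 156, 232 and 208 CPM, with -1.03 ± 0.21 for that difference (adjusted p = 0.0608). It was called by DESeq2 (adjusted p = 0.000683), with no filter on low counts (adjusted p = 0.0489), and without CD Vec 1 (-1.18, adjusted p = 0.039) and without CD oncogene 1 (-1.03, adjusted p = 0.0231).

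The valine branch runs through Hibch, Hibadh and Aldh6a1. They fell on CD by 1.14 ± 0.20 (adjusted p = 0.00105), 1.33 ± 0.21 (adjusted p = 0.000547) and 1.23 ± 0.15 (adjusted p = 0.000117). Aldh6a1, the methylmalonate semialdehyde dehydrogenase, was at 369, 287 and 359.6 CPM in CD Vec, 126, 140.3 and 167 CPM in CD oncogene, 319, 264 and 263 CPM in LPD Vec, and 237, 234 and 254 CPM in LPD oncogene, and each CD oncogene library was below each library of the other groups. In oncogene livers it was 0.75 ± 0.15 higher on LPD than on CD (adjusted p = 0.00533), and its interaction of 1.01 ± 0.21 was lost without LPD Vec 2 (adjusted p = 0.0568). That of Hibadh, 1.10 ± 0.29, was lost without CD Vec 1, 2 and 3, CD oncogene 2, LPD Vec 1, 2 and 3 and LPD oncogene 1 and 3 (adjusted p = 0.0527 to 0.104). Hibch was called higher in LPD oncogene than in CD oncogene (0.63 ± 0.20, adjusted p = 0.0414), and the call was lost without CD Vec 3, CD oncogene 1 and 2, LPD Vec 1, 2 and 3 and LPD oncogene 1, 2 and 3 (adjusted p = 0.0547 to 0.117).

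Pcca and Pccb form propionyl-CoA carboxylase, where valine, isoleucine and threonine carbon meets the citric acid cycle. Pcca was at 151, 94.4 and 116 CPM in CD Vec, 39.3, 37.5 and 50.3 CPM in CD oncogene, 107, 85.4 and 100.4 CPM in LPD Vec, and 99.9, 71.0 and 83.7 CPM in LPD oncogene, and CD oncogene lay below the rest. It fell by 1.51 ± 0.19 on CD (adjusted p = 0.000161), and Pccb by 0.84 ± 0.12 (adjusted p = 0.000278). On LPD the values were -0.20 ± 0.19 for Pcca and -0.22 ± 0.12 for Pccb. Pcca was higher in LPD oncogene than in CD oncogene by 1.003 ± 0.19 (adjusted p = 0.00441). Its interaction of 1.31 ± 0.27 was lost without LPD Vec 2 (adjusted p = 0.0544). The interaction of Bckdha, 0.63 ± 0.17, was lost without CD Vec 1, 2 and 3, CD oncogene 1 and 3, LPD Vec 1, 2 and 3 and LPD oncogene 1, 2 and 3, with adjusted p = 0.0526 to 0.122. That of Pccb, 0.61 ± 0.16, was lost without CD Vec 1, 2 and 3, CD oncogene 1 and 2, LPD Vec 2 and 3 and LPD oncogene 1 and 3, with adjusted p = 0.0502 to 0.113. Bcat2, the mitochondrial transaminase, was not called in any of the 5 comparisons, and was at 26.9, 37.4 and 39.5 CPM in CD Vec, 19.4, 37.0 and 28.6 CPM in CD oncogene, 27.5, 33.4 and 30.9 CPM in LPD Vec, and 27.5, 27.8 and 32.3 CPM in LPD oncogene.

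The 2 members called for diet in Vec livers were a transaminase of glyoxylate and an enzyme of cysteine breakdown. Agxt2, a mitochondrial aminotransferase of alanine and glyoxylate (GRCm38, Entrez 268782, chr15:10358532-10410153 on the + strand), was at 166, 190.4 and 178 CPM in CD Vec, 109, 139.9 and 148 CPM in CD oncogene, 90.2, 73.0 and 80.9 CPM in LPD Vec, and 88.4, 58.9 and 76.6 CPM in LPD oncogene. Every LPD library was below every CD library, whatever had been injected. Exons of Agxt2 overlap those of Gm21973 on the same strand, so its counts are uncertain. LPD against CD gave -1.13 ± 0.17 in Vec (adjusted p = 0.0227) and -0.82 ± 0.16 in oncogene livers (adjusted p = 0.00542), and oncogene against Vec on CD gave -0.43 ± 0.16 (adjusted p = 0.0592). The last was called by DESeq2 (adjusted p = 0.0465), and without CD oncogene 3 (-0.52, adjusted p = 0.0479), without LPD oncogene 1 (-0.44, adjusted p = 0.049) and without LPD oncogene 2 (-0.43, adjusted p = 0.0391). The call for diet in Vec was lost without CD Vec 2 and 3 and LPD Vec 2 and 3 (adjusted p = 0.0582 to 0.114), and with the fit to the Vec libraries alone (adjusted p = 0.0521), in the fit with a term for the runs (adjusted p = 0.0631), with the replicate block (adjusted p = 0.0582) and in the fit to run 2 alone (adjusted p = 0.0577).

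Agxt, the peroxisomal enzyme that clears glyoxylate to glycine, was at 156, 284 and 249.7 CPM in CD Vec, 102, 61.2 and 165 CPM in CD oncogene, 62.5, 50.1 and 62.2 CPM in LPD Vec, and 48.8, 10.8 and 43.4 CPM in LPD oncogene. The lowest CD Vec library was far above the highest LPD Vec library, CD oncogene 2 lay within the range of LPD Vec, and LPD oncogene was below every other library. LPD against CD was -1.98 ± 0.50 in Vec (adjusted p = 0.118, called by DESeq2) and -1.67 ± 0.49 in oncogene livers (adjusted p = 0.0343). The call in oncogene livers was lost without CD oncogene 1 and 3 and LPD oncogene 3 (adjusted p = 0.0619 to 0.111), and on CD oncogene against Vec gave -1.07 ± 0.48 (adjusted p = 0.106). DESeq2 called this too (adjusted p = 0.0483), and edgeR called it without LPD oncogene 2 (-1.08, adjusted p = 0.0239), with the diet difference in Vec called without LPD oncogene 2 (-1.98, adjusted p = 0.0396).

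Csad, which decarboxylates cysteine sulfinate on the way to taurine, was the member called higher on LPD in Vec livers. The gene (GRCm38, Entrez 246277, chr15:102176999-102204724 on the - strand) was at 76.1, 67.4 and 91.4 CPM in CD Vec, 132, 139 and 49.6 CPM in CD oncogene, 773, 867 and 695 CPM in LPD Vec, and 334, 710.1 and 653 CPM in LPD oncogene. The LPD libraries were all above the CD libraries, and CD oncogene 3 and LPD oncogene 1 were the lowest of their groups. LPD against CD gave 3.31 ± 0.39 in Vec (adjusted p = 0.00987), a 9.94-fold higher level, and 2.40 ± 0.37 in oncogene livers (adjusted p = 0.00161). Without CD Vec 2 the value in Vec was 3.21 with an adjusted p of 0.0604, and the fit to run 2 alone, which has 1 CD Vec library, also lost the call (3.08, adjusted p = 0.0749). Oncogene against Vec gave 0.45 ± 0.35 on CD (adjusted p = 0.351) and -0.46 ± 0.35 on LPD (adjusted p = 0.742), neither of which passed. The value on CD was called without CD oncogene 3 (0.79, adjusted p = 0.0431), and between the 2 CD libraries of run 2 it had the opposite sign, -0.88, so its direction on CD rests on which CD oncogene libraries are used. Cdo1, cysteine dioxygenase, which makes the substrate of Csad, was at 614, 543 and 581 CPM in CD Vec, 594, 433 and 538 CPM in CD oncogene, 725, 557 and 602 CPM in LPD Vec, and 453, 439 and 566 CPM in LPD oncogene. All 4 groups overlapped, and it was not called in any comparison, with log2 values from -0.37 for oncogene against Vec on LPD to 0.12 for LPD against CD in Vec.

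**Figure D5:**
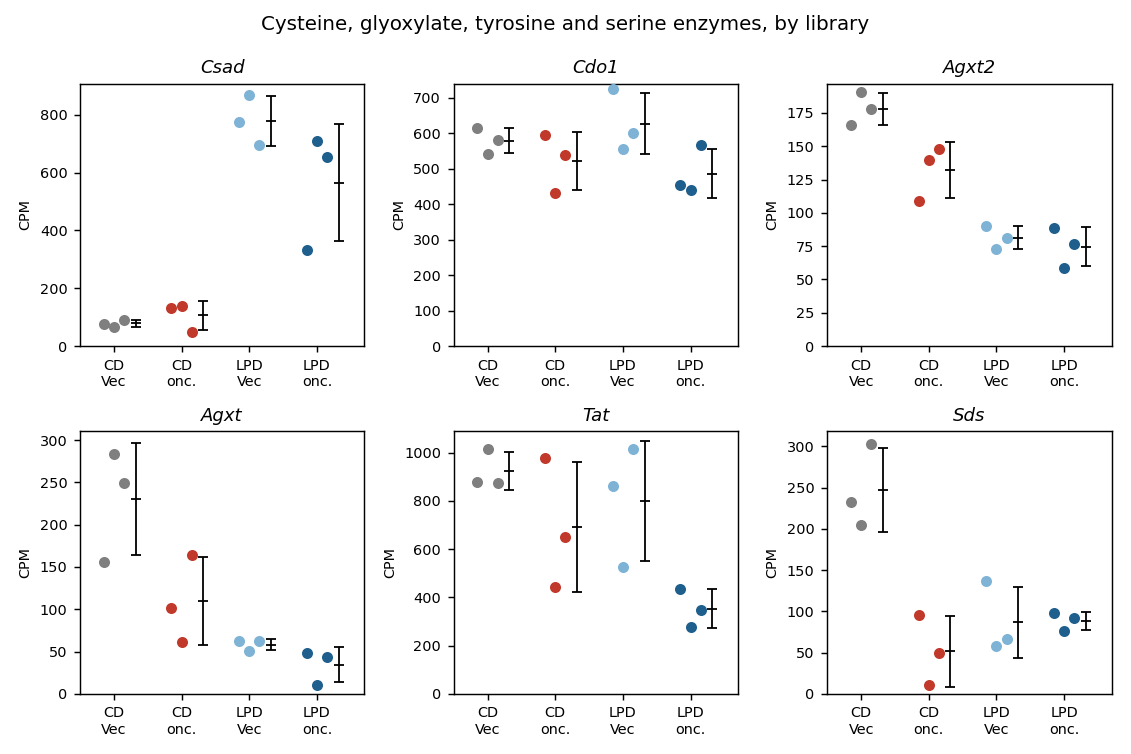
Levels in CPM of Csad, Cdo1, Agxt2, Agxt, Tat and Sds in each library (points), by group, with the mean and SD of the 3 libraries in black. Csad is above all CD points in all 6 LPD libraries and Agxt2 below them, while Cdo1 overlaps in the 4 groups.

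Other enzymes and regulators of the same pathways were read from the same fit. Of 49 listed, 46 were tested, and on CD 37 were lower and 1 higher, where 16.7% and 18.7% of all genes were, with a median of -0.83 against -0.01 over all genes. The largest falls were those of Aspg, an asparaginase (-3.63 ± 0.29, adjusted p = 1.69e-05), Ido2, another tryptophan dioxygenase (-3.44 ± 0.55, adjusted p = 0.000753), and Aadat, the aminotransferase of aminoadipate and kynurenine (-1.92 ± 0.36, adjusted p = 0.00168). Aspg had means of 262 ± 88.9, 21.1 ± 7.63, 302 ± 12.6 and 236 ± 30.8 CPM (SD, n = 3) in CD Vec, CD oncogene, LPD Vec and LPD oncogene. The one gene that rose was Oat, ornithine aminotransferase, by 1.69 ± 0.31 on CD (adjusted p = 0.00148) and 1.43 ± 0.31 on LPD (adjusted p = 0.0456). It was also the only one of the 46 called on LPD. LPD against CD called 0 of them in Vec by edgeR, with an unadjusted p under 0.05 for 19 of the 46 and for 1377 of the 13947 genes, and called 13 higher and 2 lower in oncogene livers (8.66% and 11.3% of all genes), and the interaction called 12, all above 0 (4.49% of all genes). Median log2 fold changes were -0.28 for oncogene against Vec on LPD, -0.28 for LPD against CD in Vec and 0.63 for the interaction, against 0.01, -0.03 and 0.02 over all genes.

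Markers of liver zones and of other cell types moved with these groups. The summed level of 6 periportal genes was between 4846 and 7257 CPM in CD Vec, between 1009 and 1455 CPM in CD oncogene, between 2614 and 4014 CPM in LPD Vec and between 3216 and 3685 CPM in LPD oncogene. On CD 5 of the 6 fell and Cdh1 rose, where 16.7% of all genes were called lower and 18.7% higher. Among 8 pericentral genes, which include targets of β-catenin, 6 rose on CD and 0 fell, and their sums were between 7570 and 13960 CPM in CD Vec, between 15210 and 19670 CPM in CD oncogene, between 6078 and 8852 CPM in LPD Vec and between 9745 and 12440 CPM in LPD oncogene. The defining markers of hepatocytes were high in every library, with a sum of 9 genes between 90050 and 154700 CPM. On CD, 3 of these 9 fell, 2 rose, and Alb and Hnf4a were not called. The part of these markers in the results on the enzymes was not tested.

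Lists of other cell types and of proliferation moved in part, while on CD 18.7% of all genes were called higher and 16.7% lower. Of 6 macrophage genes 3 rose on CD, with sums between 106 and 209 CPM in CD Vec, between 292 and 329 CPM in CD oncogene, between 151 and 191 CPM in LPD Vec and between 202 and 347 CPM in LPD oncogene. All 5 proliferation genes rose on CD, and their sum was between 3.696 and 12.6 CPM in CD Vec, between 113 and 157 CPM in CD oncogene, between 4.94 and 5.85 CPM in LPD Vec and between 15.1 and 45.2 CPM in LPD oncogene. In the cholangiocyte list 2 of 5 rose, with sums between 36.8 and 46.3 CPM in CD Vec and between 121 and 382 CPM in CD oncogene, and of 7 stellate and fibroblast genes 4 rose and 2 fell. Endothelial sums overlapped between the CD groups, between 96.3 and 196 CPM in CD Vec and between 106 and 170.4 CPM in CD oncogene. Of 6 endothelial genes 1 fell. The 5 T and NK genes, 1 of which rose and of which Cd8a was at 0 in a library, and the 4 B cell genes, of which 0 were called, summed to no more than 4.50 CPM per list in any library. Of 4 neutrophil genes 3 were tested and 2 rose on CD, where the list summed to at most 17.8 CPM and Retnlg was at 0 in a library. Their part was not tested.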

How the data were processed

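Whole liver RNA was sequenced in 12 libraries, 3 per group, and groups and replicate numbers were taken from the sample titles. Raw counts per gene were deposited by the authors for 27179 Entrez genes in 1 table, with totals of 19476209 to 31990267 per library. The authors aligned reads with HISAT2 to mm10, counted them with featureCounts and used DESeq for their own comparisons. Versions, the strand setting and the treatment of multimapped reads are not given in the sources used here. The labels name a KAPA kit with rRNA depletion, and the methods name a stranded mRNA kit, so the library type is uncertain. Column names write HPD for the libraries that the titles call chow diet, and the titles were followed. The counts of the 10 members whose exons overlap another gene are uncertain, while 33 members overlap none. For most of the 10 the overlap is on the other strand, and the strand setting is unstated. Afmid, Aldh4a1 and Agxt2 overlap a gene on the same strand, where the setting would not matter.

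Symbols were assigned to 93.1% of the Entrez identifiers through RefSeq and GENCODE, and exon lengths came from GENCODE release M21 (GRCm38). Counts were analysed in R 4.3.3 with edgeR 4.0.16 (limma 3.58.1). Genes were kept by filterByExpr, which left 13947 and removed 13232, and libraries were scaled by TMM, with factors of 0.864 to 1.12. One quasi-likelihood model with robust dispersion, 1 coefficient per group and 8 residual degrees of freedom gave all 5 comparisons, with p-values adjusted by Benjamini-Hochberg over all genes tested and a threshold of 0.05. All tests are two-sided. On simulated counts for oncogene against Vec on CD, 91.5% of 200 genes changed 4-fold were recovered among 13335 genes, and 4.69% of the calls were false.

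The members and lists were chosen with earlier results of these data known. Every member may be named with its levels, its fold change is a named result where it was called, and of other lists up to 3 called genes with the largest change each way are named. The alternatives were total counts, relative log expression factors, no filter on low counts, DESeq2 1.42.0, a fit to the compared groups alone, the replicate number as a block, a term for the header runs, and each library left out in turn. A fit to the 7 libraries of run 2 alone was added after seeing the data. Promoter windows and their motif matches were read from RefSeq on GRCm38.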

Additional observations from a re-analysis of the deposited data

Results flagged for a closer look

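For 20 members, the effect of the oncogenes differed between the diets by the interaction term of edgeR's quasi-likelihood test, and in each the log2 difference between oncogene and Vec was higher on LPD than on CD. The values are the fold change on LPD minus that on CD, on the log2 scale. In histidine breakdown they were 3.05 for Hal, 2.19 for Uroc1, 1.68 for Amdhd1 and 1.59 for Ftcd. In tryptophan breakdown they were 1.79 for Tdo2, 1.46 for Afmid, 1.17 for Kmo and 1.08 for Haao. Lysine breakdown gave 1.77 for Aass, 1.31 for Gcdh and 1.10 for Aldh7a1. Gldc of glycine cleavage had 2.29, and Prodh2 of hydroxyproline oxidation had 0.93. Among the branched-chain enzymes the values were 1.31 for Pcca, 1.10 for Hibadh, 1.05 for Mccc2, 1.01 for Mccc1, 1.01 for Aldh6a1, 0.63 for Bckdha and 0.61 for Pccb. Adjusted p-values by edgeR ranged from 0.00321 for Hal to 0.0465 for Haao. A term for the runs left 1 of the 20 calls, that of Hal, and 7 held with each library left out in turn. With 3 libraries per group, no group was searched for a single distant sample. LPD oncogene livers were taken at the end point of the CD oncogene mice, when the study reports a lower tumor burden on LPD. The proliferation genes summed to between 113 and 157 CPM in CD oncogene and between 15.1 and 45.2 CPM in LPD oncogene. The part of tumor content in these interactions was not tested.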

How the results depend on the processing

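No log2 fold change of a called member reversed under any alternative. Of 1440 recomputed values of called members, 1174 kept their call and 266 lost it. With a term for the header runs, called genes went from 4933 to 945 for oncogene against Vec on CD, from 184 to 75 on LPD, from 43 to 16 for LPD against CD in Vec, from 2784 to 618 in oncogene livers and from 1243 to 85 for the interaction. Called members then went from 31 to 10, from 2 to 1 for diet in Vec, from 20 to 4 for diet in oncogene livers and from 20 to 1 for the interaction. In run 2 alone, where each CD group has 1 library that is assumed to vary like the LPD libraries, genes numbered 1745 on CD, 136 for diet in Vec, 1720 for diet in oncogene livers and 390 for the interaction, and members 1 on LPD (from 0), 8, 13 and 8, which kept 0 of the 2 calls for diet in Vec, 9 of 20 for diet in oncogene livers and 6 of 20 for the interaction. DESeq2 called 497 genes and 1 member on LPD, 339 and 14 for diet in Vec, and 2083 genes for the interaction. The fit to the compared groups alone called 3014 genes on CD, 505 genes and 3 members on LPD, 3 genes and 1 member for diet in Vec, and 13 members for diet in oncogene livers. Total counts gave 66 genes for diet in Vec, and no filter on low counts 4 members there. With total counts 29.0% of all genes called for the interaction were above 0, against 50.4% with TMM.

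With the replicate block, genes numbered 16 for diet in Vec and 812 for the interaction, and members 1 for diet in Vec and 14 for the interaction. The numbers do not pair the libraries: same-numbered libraries had deviations with r from -0.183 to 0.167, 2 of 18 pairs were over 0.1, and 3 of 12 libraries correlated best with their own number.

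With 1 library left out, genes ranged from 4251 to 4859 on CD, 52 to 254 on LPD, 5 to 104 for diet in Vec, 1585 to 3660 for diet in oncogene livers and 391 to 1404 for the interaction. Members ranged from 28 to 34, 0 to 1, 0 to 6, 13 to 22 and 7 to 20, the lowest being without CD Vec 2 for diet in Vec, LPD oncogene 3 for diet in oncogene livers and LPD Vec 2 for the interaction. The causes were not tested. With 3 libraries per group and a coefficient of variation of 23.2%, small changes may have been missed. Only 4-fold changes were simulated, so how often smaller ones are found was not tested.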
